A study of Mus musculus with 4 samples.

Results

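Aristolochic acid I (AAI) was compared with no injury in kidney nuclei of mice that overexpress human KLF6, in 21 cell clusters of single-nucleus RNA sequencing. The comparison used 42 of the 92 deposited columns, which are the columns of the mouse labelled OE_AAI and of the mouse labelled OE in every cluster other than the 2 that the study named injured proximal tubule. All 4 mice of the series were male, of mixed background, carried the TRE-hKLF6 transgene and received doxycycline in the diet. The OE mice also carried CAG-rtTA, a doxycycline-dependent activator driven by a ubiquitous promoter, so that human KLF6 was induced throughout the body and not in the tubule alone. The 2 mice without the activator, labelled Control and Control_AAI, served here as a second pair that shares no animal with the first. AAI was given as a single intraperitoneal injection and the kidney cortex was taken the following day. Each condition is 1 mouse, so that no difference below has a spread between animals or a test, and every value describes these libraries. Only mouse *Klf6* has a row in the table, and the human transgene was not analysed here.

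AAI is a plant nephrotoxin that organic anion transporters carry into proximal tubule cells, where its reduced form binds purines in DNA. Bulky DNA adducts of this kind stall RNA polymerase II and activate p53, a transcription factor whose targets arrest the cell cycle, repair DNA or start apoptosis, and which limits itself through *Mdm2*. KLF6 is a zinc finger transcription factor that is induced early after kidney injury.

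Levels are mean counts of a gene per nucleus in 1 cluster of 1 mouse, after the counts of each nucleus were scaled to 10000. Nuclear libraries hold intronic reads of pre-mRNA, and levels of different genes are not per length, so levels are compared only within a gene. A difference is the log2 of the level plus 1 with AAI, minus the same without AAI. A gene was tested in a cluster where the larger of its 2 levels was at least 0.5, and was called higher or lower from a difference of 0.5, which is a 1.41-fold ratio of the levels plus 1. The columns carry cluster numbers, and the study's names were given to them by the order of the sheets in its marker table (PT, proximal tubule; LH-DL and LH-AL, descending and ascending limb; DCT, CNT and CD_PC, distal convoluted tubule, connecting tubule and principal cells; IC, intercalated cells; MC, mesangial cells; EC, endothelium). Of 57 marker genes, 53 had their highest mean over the OE pair in a cluster of the type they mark. The exceptions were *Slc22a6* and *Tshz2*, which were highest in MC, *Scnn1g* in CNT and *Piezo2* in EC-2. None of the 5 endothelial markers was highest in EC-1, where *Flt1*, the VEGF receptor, had a mean of 3.72 against 22.7 in EC-2. EC-1 had means of 29.4 for *Slc34a1* and 15.8 for *Slc5a12*, which mark the proximal tubule, and of 32.9 for *Slc12a1*, which marks the ascending limb.

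Between 4017 and 6042 genes were tested per cluster. In the proximal tubule, the share called in either direction was 11.8% in PT-S3-1, 5.98% in PT-S1-S2-1, 6.84% in PT-S1-S2-2, 7.58% in PT-S3-2 and 16.1% in PT-S3-3. It was 6.35% in DCT, 7.26% in CNT and 7.37% in DCT_CNT, and 7.71%, 9.44% and 56.2% in LH-AL-1, LH-AL-2 and LH-AL-3. In the endothelium it was 5.30% in EC-1 and 10.7% in EC-2. In the remaining clusters it was 17% in CD_PC, 22.7% in MC, 14.7% in IC-B-1, 18.9% in IC-A, 29.9% in IC-B-2, 18.2% in podocytes, 41.1% in the macrophage cluster and 37.7% in LH-DL. The share of all genes at 0 in the mouse with more of them moved with this, from 21.5% in PT-S1-S2-1 to 63.4% in LH-AL-3. LH-AL-3, the macrophage cluster, IC-B-2 and LH-DL, where over 50% of the genes were at 0 in a mouse, therefore carry single differences of little precision. The numbers of nuclei and counts are not in the table. PT-S3-3, at 30.4% of genes at 0, had 368 genes higher and 319 lower.

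**Figure D1:**
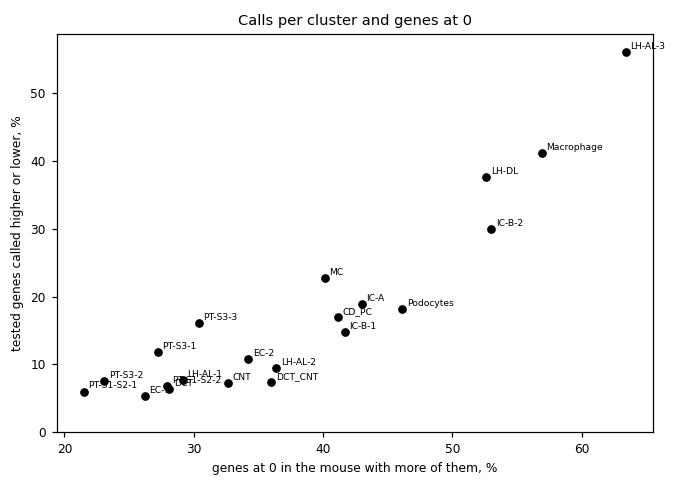
Each point is 1 of 21 clusters, with the percent of all 19609 genes at 0 in whichever mouse of the OE pair had more of them on the x axis and the percent of tested genes called higher or lower with AAI on the y axis. Both rise together up to LH-AL-3 at 63.4% and 56.2%, and PT-S3-3 and PT-S3-1 lie above clusters with a like share of genes at 0.

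A set of 20 genes was raised through most of the kidney, called higher in at least 14 of the 21 clusters and lower in none. They are 0.535% of the 3740 genes tested in at least 14 clusters. A further 7 genes reached 13 clusters, and 4 of the 20 had exactly 14. The p53 list held 4 of the 20 (*Mdm2*, *Trp53inp1*, *Ccng1* and *Bcl2l1*) and the list of AP-1 and immediate early genes held 3 (*Egr1*, *Zfp36* and *Junb*), which leaves 13 in neither. The median over the 20 of their median differences was 0.74.

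*Mdm2*, the ubiquitin ligase that degrades p53, was called in 20 clusters. Its level was 0.871 (PT-S3-1), 0.848 (PT-S3-2) and 0.934 (PT-S3-3) in the OE mouse and 6.65, 3.60 and 8.16 with AAI, and 0.668 and 0.883 against 2.08 and 3.83 in the PT-S1-S2 clusters. Over the 16 other clusters the median was 0.597 without and 2.01 with AAI. The lowest level with AAI in any cluster was 1.04 and the highest without was 1.46, so the ranges over clusters overlapped only between these levels. *Trp53inp1*, which promotes autophagy and apoptosis, had a median over clusters of 0.370 without and 1.18 with AAI, and *Ccng1*, cyclin G1, had 0.291 and 1.24. *Bcl2l1*, which encodes the antiapoptotic Bcl-xL, had medians of 2.16 and 3.93, and was called in 14 clusters, all 5 of the proximal tubule among them.

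*Egr1*, an immediate early transcription factor, was at most 0.365 in any cluster of the OE mouse and had a median of 1.68 with AAI, with its highest level of 6.03. *Junb*, an AP-1 subunit, had medians of 0.102 and 0.945, and *Zfp36*, which encodes an RNA-binding protein that destabilizes cytokine mRNAs, had 0.208 and 0.735. *Tob1*, an antiproliferative adaptor of the deadenylase complex, had medians of 0.658 and 1.66 and was called in 16 clusters. In the clusters named for cells outside the tubule, the difference of *Mdm2* was 0.59 in podocytes, 1.27 in MC, 1.17 in EC-1, 1.29 in EC-2 and 0.63 in the macrophage cluster. That of *Egr1* was 0.96, 1.59, 1.34, 1.19 and 0.06 in the same clusters. In the macrophage cluster its levels of 0.247 and 0.302 were under the minimum, so it was not tested there. It was called in all 19 clusters where it was tested. The 67 proximal tubule genes summed to 258, 525, 454, 382 and 396 in these clusters of the OE mouse. The part of tubule RNA in these differences was not tested.

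The remaining raised genes have mixed roles. *Gm28153*, an antisense gene that overlaps *Crispld1* on chromosome 1, was the only gene called higher in all 21 clusters. Its level was between 0 and 0.863 in the OE mouse and between 0.845 and 5.87 with AAI. *2610035D17Rik*, a long intergenic noncoding RNA on chromosome 11, had a median of 0.0231 without AAI, with a highest level of 1.25, and a median of 1.14 with AAI. *Gm26917*, a noncoding RNA on chromosome 17, had medians of 0.856 and 3.67, with differences from -0.38 in LH-AL-3 to 2.46 in PT-S1-S2-2. *Exoc4*, an exocyst subunit with a span of 725 kb, was between 3.94 and 6.56 in every cluster of the OE mouse, and in the proximal tubule its mean was 5.30 without and 18.5 with AAI. *Chd9*, a chromatin remodeller, had medians of 3.81 and 6.57. *Spag5*, a mitotic spindle protein, had medians of 0.908 and 1.99. *Pkhd1*, which encodes the ciliary protein fibrocystin, and *Slc13a1*, the sulfate transporter of the proximal brush border, are tubule genes. *Slc13a1* had means of 8.70 and 24.7 over the proximal tubule clusters, and its median over the other 16 was 1.52 without and 3.56 with AAI.

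**Figure D2:**
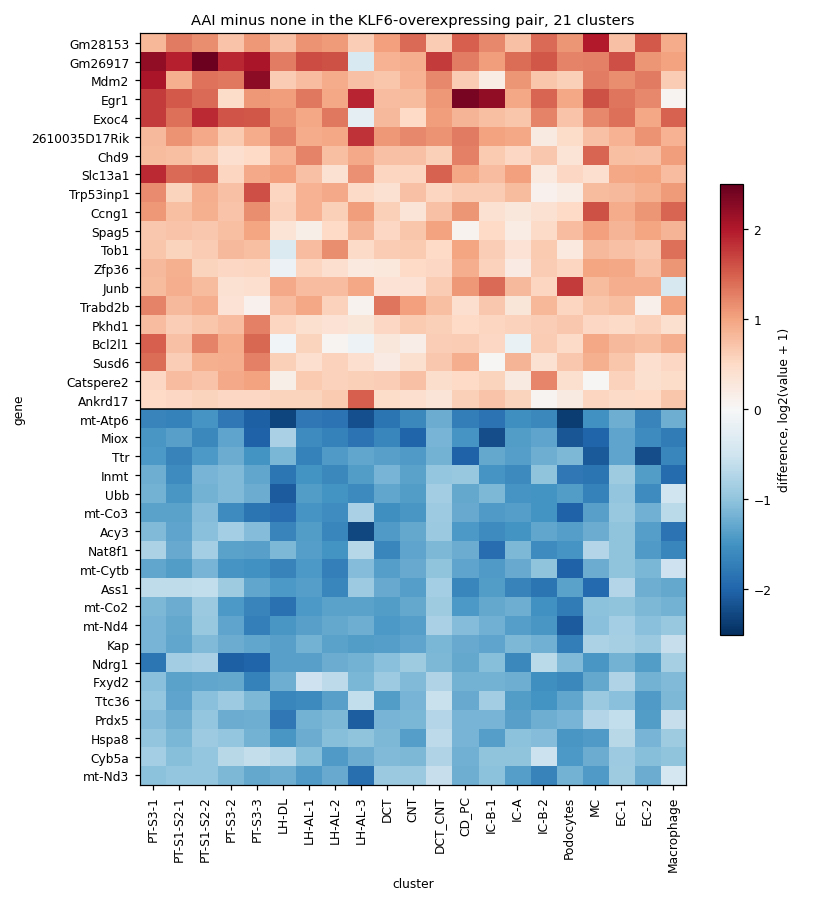
Rows are the 20 genes raised in at least 14 of 21 clusters and, under the line, the 20 genes lowered in the most clusters. Columns are the clusters and the colour is the difference on the log2(level + 1) scale. *Gm28153* is above 0 in every column, *Mdm2* is darkest in PT-S3-3 at 2.24 and PT-S3-1, and *mt-Atp6* is at or below -1.22 in every column.

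Promoters are shown for *Mdm2* and *Ccng1* of the p53 list and for *Exoc4*, the strongest of the other raised genes that hold a p53 half-site. The half-site is the 10-base element that p53 binds in pairs. *Trp53inp1* and *Bcl2l1* are not among the genes found to hold it. RefSeq (GRCm38.p6) gives 300 bases, 250 before to 50 after the start, for 14 of the 20 raised genes. The half-site was searched on 1 strand, which finds both since the element reads alike on either, and 4 of the 14 hold it (*Mdm2*, *Ccng1*, *Exoc4* and *Pkhd1*), against 8.36% of all 32851 promoters. Capitals mark the half-site, and each sequence runs 5′ to 3′ on the strand of the gene. *Mdm2* lies on the minus strand at chr10:117710709-117711008, *Ccng1* on the minus strand at chr11:40755237-40755536, and *Exoc4* on the plus strand at chr6:33248878-33249177.
Mdm2: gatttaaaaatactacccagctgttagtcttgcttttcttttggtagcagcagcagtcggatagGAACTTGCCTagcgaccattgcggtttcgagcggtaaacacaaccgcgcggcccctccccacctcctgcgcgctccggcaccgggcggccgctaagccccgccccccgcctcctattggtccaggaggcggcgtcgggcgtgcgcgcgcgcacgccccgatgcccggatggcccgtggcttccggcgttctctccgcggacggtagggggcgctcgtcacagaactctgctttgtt
Ccng1: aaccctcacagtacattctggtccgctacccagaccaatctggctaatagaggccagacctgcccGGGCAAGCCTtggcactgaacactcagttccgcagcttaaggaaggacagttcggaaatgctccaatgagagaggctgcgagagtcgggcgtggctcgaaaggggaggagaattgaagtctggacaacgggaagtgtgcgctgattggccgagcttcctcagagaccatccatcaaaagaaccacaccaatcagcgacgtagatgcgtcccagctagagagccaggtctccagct
Exoc4: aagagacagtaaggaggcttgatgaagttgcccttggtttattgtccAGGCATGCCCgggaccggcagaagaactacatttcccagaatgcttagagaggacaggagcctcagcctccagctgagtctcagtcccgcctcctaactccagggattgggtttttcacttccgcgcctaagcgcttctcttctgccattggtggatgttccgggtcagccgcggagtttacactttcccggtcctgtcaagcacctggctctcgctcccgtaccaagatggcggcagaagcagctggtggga
A match is a description of the letters and not of binding. The element begins 186, 185 and 203 bases before the start of *Mdm2*, *Ccng1* and *Exoc4*. No second exact match to the half-site is in these 3 windows, and near matches were not counted. In *Ccng1* the 10 bases directly before the capitals, agacctgccc, differ from the half-site at 1 base.

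Read over the whole p53 list, 15 of 38 members in the table were tested in at least 7 clusters, and 9 of them were called higher in at least 7 and lower in at most 1. The same rule calls 2.28% of the 5139 genes tested in at least 7 clusters. None was called lower by the matching rule, which calls 4.28%. The 9 members were *Mdm2*, *Trp53inp1*, *Ccng1*, *Bcl2l1*, *Btg2*, *Polk*, *Gdf15*, *Cdkn1a* and *Pvt1*. *Cdkn1a*, the p21 inhibitor of cyclin-dependent kinases, was at 0 in the median cluster and at most 0.222 without AAI, and had a median of 0.481 and a highest level of 1.81 with AAI. *Btg2*, an antiproliferative gene, had medians of 0.199 and 0.711. *Gdf15*, a stress cytokine, had medians of 0.0851 and 0.539. *Polk*, a translesion polymerase that copies past bulky adducts, had medians of 0.453 and 1.06, and *Rev1*, which recruits such polymerases, 1.16 and 2.04. The median difference of the tested p53 members was above 0 in all 21 clusters, from 0.20 to 0.92, while that of all tested genes was between -0.07 and 0.08.

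Of 9 tested AP-1 and immediate early genes, 4 were called higher by this rule, with *Jun* beside the 3 named above, and none lower. *Stat3*, the transcription factor of interleukin signalling, and *Cxcl1*, a neutrophil chemokine, were the 2 of 6 inflammation genes called higher, and *Cxcl1* had medians of 0.0281 and 0.432. In the clock list, *Nr1d2* was called higher and *Rora* lower. *Rora*, a nuclear receptor that drives *Arntl*, had medians of 7.85 without and 4.21 with AAI. The 12 glucocorticoid response genes had no call, although *Fkbp5* was called higher in 8 clusters and lower in 2. *Hnrnph1* and *Srsf5* were the 2 of 33 splicing factors called higher. *Gm42418*, the neighbour of *Gm26917* on chromosome 17, was called higher in 10 clusters with medians of 5.21 and 8.23. This rule needs calls in 7 clusters and cannot call a gene that is expressed in 1 cell type. No member met it in either direction among 2 tested aryl hydrocarbon receptor targets, 4 genes of the integrated stress response, 2 of the cell cycle, 7 of the Klf family, 13 of principal cells, 10 of intercalated cells, 3 endothelial, 3 mesangial and 2 macrophage genes. In CD_PC itself, *Aqp2*, the vasopressin-regulated water channel, was 12.05 without and 3.59 with AAI. Its difference was -1.51 there and -0.19 in the control pair. The other markers highest in CD_PC went both ways. *Aqp3* was 6.91 and 2.73, *Fxyd4* 2.31 and 1.97, and *Mgat4c* rose from 10.3 to 24.0. Mouse *Klf6* had medians of 0.179 and 0.453 and was called higher in 6 of the 8 clusters where it was tested, 1 short of the rule. *Polr2a*, the large subunit of RNA polymerase II, had medians of 1.38 and 2.01 and was called higher in 6 of 21.

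The broad falls were more numerous. Called lower in at least 14 clusters and higher in none were 66 genes, or 1.76% of the 3740, and 19 of them were called in all 21. A further 16 genes reached 13 clusters and 12 of the 66 had exactly 14. The median over the 66 of their median differences was -0.77. They include 8 of the 13 mitochondrially encoded genes, 9 proximal tubule genes of the transport and metabolism list and 3 nuclear genes of oxidative phosphorylation.

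*mt-Atp6*, an ATP synthase subunit encoded in mitochondrial DNA, had a median over clusters of 46.2 in the OE mouse and 12.9 with AAI. Its lowest level without AAI was 28.3 and its highest with AAI was 34.3, so the ranges overlapped only slightly. *mt-Co3*, *mt-Cytb*, *mt-Co2* and *mt-Nd4* were also called lower in all 21 clusters. The 13 mitochondrial genes summed to between 1.70% and 5.86% of a column without AAI and between 0.626% and 3.00% with AAI, and were lower with AAI in all 21 clusters. Mitochondrial RNA is not transcribed in the nucleus.

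*Miox*, the inositol oxygenase of the proximal tubule, had means of 8.64 without and 2.33 with AAI over the proximal tubule clusters, and medians of 5.70 and 1.09 over the other 16. *Kap*, an androgen-dependent proximal tubule gene, had medians of 92.7 and 37.7 over the 21 clusters. *Ass1*, argininosuccinate synthase, had 3.57 and 1.15, *Acy3*, an aminoacylase, 4.84 and 1.32, *Nat8f1*, an acetyltransferase, 3.27 and 0.672, and *Inmt*, a methyltransferase of indole amines, 2.20 and 0.233. *Ubb*, a polyubiquitin gene, had 2.63 and 0.373. *Hspa8*, a constitutive chaperone, had 4.97 and 1.80, and of 13 tested chaperones it and *Hsp90ab1* were called lower. *Ttr*, which encodes transthyretin, was between 1.19 and 3.68 in every cluster of the OE mouse and at most 0.079 with AAI. It was listed at 0 in the median cluster with AAI, so no fold is given.

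The lowered genes included both genes that were higher in the proximal tubule and genes that were not. In the OE mouse the ratio of the median of the 16 other clusters to the mean of the proximal tubule was 1.11 in the median lowered gene, against 0.985 in the median of the 3740 genes and 0.756 in the median raised gene. It was 0.57 for *Ass1*, 0.66 for *Miox* and 1.35 for *mt-Atp6*, and 9 of the 66 were over 4 times higher in the proximal tubule in at least 1 mouse of the pair. They were also short: 56 of 66 spanned under 30 kb, or 84.8%, against 27.9% of the 3740, with a median span of 7.44 kb against 57.3 kb. The raised genes had a median span of 57.3 kb. The level of the proximal tubule list in other cells moved with this. Its 67 genes summed to between 588 and 621 in the proximal tubule clusters of the OE mouse, and the sum with AAI was between 85.0% and 102% of that. In the 16 other clusters the sum with AAI was between 46.6% and 87.1% of that without, with a median of 57.0%. In the control pair the median over the same 16 clusters was 73.6%. How much of the broad falls is tubule or cytoplasmic RNA read in other nuclei was not tested.

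The mouse without injury also stood apart. The 66 genes summed to a median over clusters of 441 in Control, 286 in Control_AAI, 568 in OE and 226 in OE_AAI. The OE mouse was above Control in all 21 clusters, and OE_AAI was below Control_AAI in 19. The 66 were chosen as lower in OE_AAI than in OE, which by itself favours both results. Ribosomal protein genes moved in the same manner, with median sums of 28.7, 33.2, 50.2 and 26.9 in the same order, so that they were lower with AAI in the OE pair and not in the control pair. With the Control mouse in place of the OE mouse as the baseline, a choice made after the values were seen, 49 genes were lowered in at least 14 clusters, of which 32 are among the 66. In the same setting 13 genes were raised, of which 10 are among the 20. The 20 raised genes, likewise chosen within the OE pair, summed to 62.1, 95.4, 50.3 and 102 in the 4 mice.

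**Figure D3:**
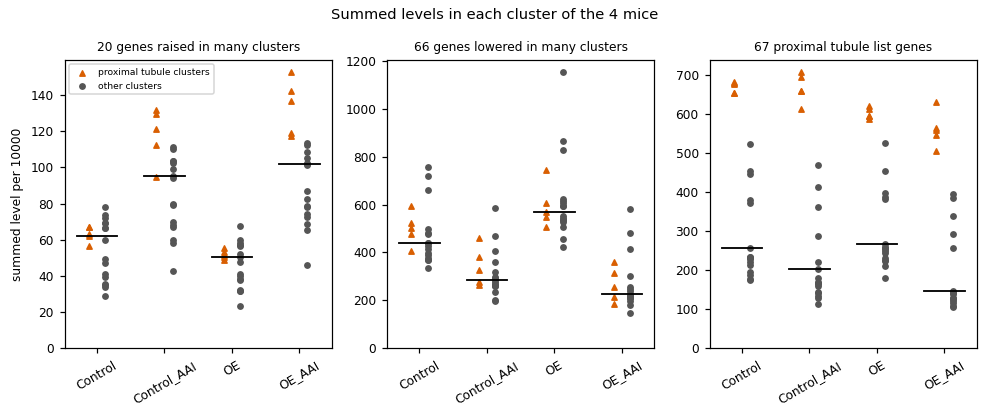
Each point is the summed level per 10000 in 1 cluster of 1 mouse for the 20 raised genes, the 66 lowered genes and the 67 genes of the proximal tubule list, with triangles for the 5 proximal tubule clusters, circles for the 16 others and a line at the median of 21. The lowered genes are highest in the OE mouse with a median of 568 and lowest in OE_AAI at 226, which their choice within this pair favours. The proximal tubule list is lower with AAI mainly outside the proximal tubule.

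Among the lists, the falls were of the same kind. The list rule calls 4.28% of all 5139 genes lower and 2.28% higher. All 11 mitochondrially encoded genes tested in at least 7 clusters were called lower, as were 14 of 60 nuclear oxidative phosphorylation genes, 12 of 48 ribosomal protein genes and 23 of 62 proximal tubule genes, with 0, 0, 0 and 3 called higher. The 3 were *Slc13a1*, *Cyp7b1*, an oxysterol hydroxylase of PT-S3, and *Slc2a2*, the basolateral glucose transporter. Of 31 fatty acid oxidation genes, only *Ehhadh*, the peroxisomal bifunctional enzyme, and *Pecr* were lower, which is near the share over all genes. In the NRF2 and glutathione list, the ferritin genes *Ftl1* and *Fth1* were lower and *Abcc2*, an apical export pump, was higher among 18 tested. Among 22 distal tubule genes, *Slc8a1*, *Wnk1* and *Cyp24a1* were higher and *S100g* and *Klk1* lower. *Slc8a1*, the sodium-calcium exchanger of the connecting tubule, was 223 in CNT without and 412 with AAI, and its median over clusters was 1.65 and 4.95. In the control pair its median over clusters was 6.83 without and 4.33 with AAI. *Cldn10* and *Col4a3* were lower and *Dach1* was higher in the ascending limb and podocyte lists.

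The control pair was not used to choose these genes. All 20 raised genes had a median difference above 0 there, where 55.5% of the 3740 genes did, and 62 of the 66 lowered genes had one below 0, where 44.4% did. By the same rule 9 genes were raised and 21 lowered in at least 14 clusters of the control pair. Shared between the pairs were 5 raised genes, which is 25.0% of the 20 and 55.6% of the 9, and 14 lowered genes, which is 21.2% of the 66 and 66.7% of the 21. *Chd9* had a median difference of 0.73 in the OE pair and 1.73 in the control pair, where it was called in 21 clusters. *Egr1* had 1.19 and 0.87, *Mdm2* 0.88 and 0.58, and *Gm28153* 1.08 and 0.32. *mt-Atp6* had -1.70 and -0.90, *Miox* -1.57 and -0.79, and *Ttr* -1.41 and -0.03. Whether the pairs differ cannot be tested with 1 mouse a side. Over all genes tested in both pairs, Pearson's r between the differences reached 0.764 (PT-S3-3) and 0.707 (PT-S3-1) and was lowest at 0.0781 in LH-DL, across 3573 to 4655 genes of 4 libraries, which are not independent replicates.

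**Figure D4:**
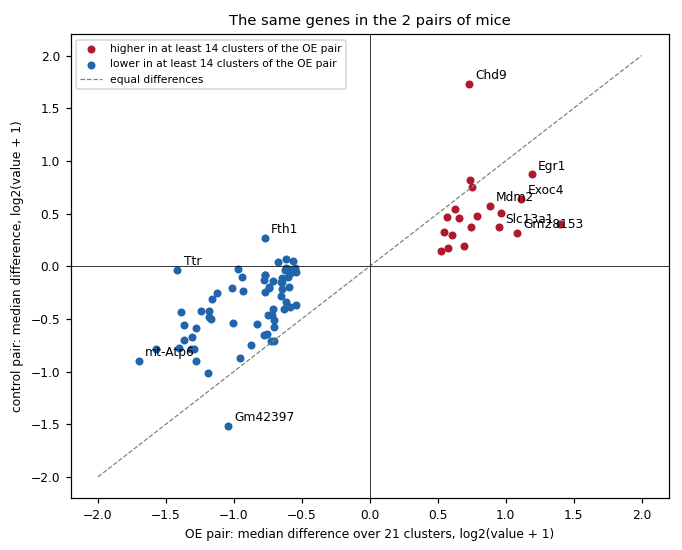
Each point is a gene raised (red) or lowered (blue) in at least 14 clusters of the OE pair, with its median difference over 21 clusters in that pair on the x axis and in the control pair on the y axis, both on the log2(level + 1) scale. All red points lie above 0 on the y axis, 62 of 66 blue points lie below it, and *Chd9* is the red point farthest above the dashed line of equal differences.

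In the proximal tubule, 33 genes were called higher in all 5 clusters and 44 lower, which is 0.981% and 1.31% of the 3364 genes tested in all 5. Nearly all of them were called elsewhere too, in a median of 9 and 14 of the 16 other clusters. *Gk*, glycerol kinase, was the only gene that was called in all 5 and in at most 1 cluster outside, with levels from 8.18 in PT-S1-S2-1 to 21.2 in PT-S3-2 without AAI and from 13.6 to 31.1 in the same clusters with AAI. Its differences in the control pair were above 0 in the 5 clusters. No gene was lowered there by this rule. Of the 33, those named next were chosen after their values were seen. *Mgmt*, which removes alkyl groups from guanine, was at most 0.668 without AAI and at least 1.91 with AAI in the 5 clusters. *Gria3*, a glutamate receptor subunit, was 0.526 and 14.4 in PT-S3-1. *Map3k20*, a kinase that senses stalled ribosomes, was at most 0.384 without and at least 1.05 with AAI. *Itgb6*, an integrin of injured epithelium, was 2.31 and 9.08 in PT-S3-3, whereas its differences in the control pair were below 0 in all 5 clusters.

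Within the proximal tubule the segments differed in part. Called in both PT-S1-S2 clusters and in at most 1 other cluster were 9 raised and 3 lowered genes, of which 7 and 2 had the same sign in both clusters of the control pair. Here and below, genes are ranked by the smallest of their differences over the clusters of the segment. *Noct*, nocturnin, and *Nfkbia*, the inhibitor of NF-kappaB, were among the largest rises of that kind. *Nfkbia* was 0.296 and 0.203 without AAI and 1.59 and 0.916 with AAI, and it was tested in 9 clusters outside. *Ddc*, the decarboxylase that makes dopamine, had the largest fall, from 1.86 and 1.84 to 0.538 and 0.714, and *Anapc15* and *Trim7* were the other 2.

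In the 3 PT-S3 clusters, 9 genes were raised and 3 lowered by this rule, and 23 and 13 when only the PT-S1-S2 clusters had to be without a call. Of the 9 and 3, 8 and 1 had the same sign in all 3 clusters of the control pair. *Dscaml1*, a cell adhesion gene, was at most 0.0738 without AAI in the 3 clusters and 1.21, 1.59 and 2.46 with AAI, and was called in 1 of the 2 clusters outside where it was tested. *Chst11*, a chondroitin sulfotransferase, was 3.36, 2.03 and 2.73 without and 6.27, 4.71 and 6.13 with AAI, and was called in 1 of 16 outside. *Aen*, a p53-induced exonuclease, was at most 0.151 without and 1.08, 0.707 and 1.13 with AAI. It was not confined to PT-S3, since the only other cluster where it was tested was PT-S1-S2-2, where it was called higher at 0.0578 and 0.597. *Alk*, a receptor tyrosine kinase, *Klhl32* and *Ppm1k*, a mitochondrial phosphatase of branched-chain amino acid breakdown, were lower. *Alk* was 1.22, 1.74 and 1.28 without and 0.00966, 0.641 and 0.221 with AAI, and was tested in 1 cluster outside. Of the wider set, chosen after the values were seen, *Nrg1*, an epidermal growth factor family ligand, was 5.21, 5.91 and 6.22 without and 12.9, 19.1 and 24.4 with AAI. *Slc34a1*, the sodium-phosphate cotransporter, was 48.5, 12.3 and 41.8 without and 33.6, 5.35 and 4.16 with AAI in PT-S3-1, PT-S3-2 and PT-S3-3. In the control pair its differences were -1.03, -1.26 and -2.40 in the same clusters.

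Outside the proximal tubule, few genes were called in 1 segment and in at most 1 cluster outside it. In the ascending limb, 26 genes were called higher in all 3 clusters and 74 lower, or 0.751% and 2.14% of 3463, and 4 and 3 of them were called in at most 1 cluster outside. Of these, 1 and 1 had the same sign in all 3 clusters of the control pair. *St3gal4*, a sialyltransferase, was 1.93, 3.02 and 0.231 without and 3.79, 6.33 and 1.48 with AAI, and *Ptk2*, focal adhesion kinase, and *Ier3*, an immediate early gene, followed. The differences of *Ptk2* were -0.12, -0.37 and -0.30 in the control pair. *Tenm2*, a teneurin of cell adhesion with a span over 800 kb, was 5.44, 2.83 and 14.5 without and 0.121, 0.335 and 1.63 with AAI in LH-AL-1, LH-AL-2 and LH-AL-3. Its differences were below 0 in the same clusters of the control pair, and it was tested in 3 clusters outside. In LH-DL it was higher with AAI, at 3.36 without and 14.8 with it. *Dynll2*, a dynein light chain, and *Magi2*, a scaffold protein, were the other 2.

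In the distal convoluted and connecting tubule, 18 genes were called higher in all 3 clusters and 45 lower, or 0.530% and 1.32% of 3399. The proximal tubule list summed to 388 in DCT_CNT of the OE mouse, against 210 in DCT and 224 in CNT. *Tdrd3*, a Tudor domain protein, and *Sox6*, a transcription factor, were the 2 called in at most 1 cluster outside. *Tdrd3* was 4.18, 2.25 and 1.79 without and 9.57, 5.19 and 3.51 with AAI. In the intercalated clusters the counts were 32 and 79, or 0.894% and 2.21% of 3580, with 4 and 7 of that kind, of which 1 and 2 had the same sign in all 3 clusters of the control pair. *Erc1*, a Rab6-binding scaffold, was 0.899, 1.65 and 1.67 without and 2.20, 3.36 and 4.46 with AAI in IC-B-1, IC-A and IC-B-2, and *Plcd3* and *Socs5* followed. *Sh3bgrl2*, *Nlgn1*, a neuroligin, and *Ggact* led the falls by the smallest of their 3 differences. *Atp6v1b1*, a proton pump subunit of these cells and also of this kind, was 6.33, 6.64 and 6.16 without and 4.15, 3.11 and 2.65 with AAI. Its differences in the control pair were -0.26, -0.34 and 0.16. Other pump subunits did not fall in IC-B-1, where *Atp6v1g3* was 10.5 without and 16.5 with AAI and *Atp6v0d2* 13.5 and 14.9. *Sh3bgrl2*, *Nlgn1* and *Plcd3* were each tested in only 2 clusters outside, and *Plcd3* was called in 1 of them. In EC-1 and EC-2, 42 genes were called higher in both and 53 lower, or 1.08% and 1.37% of 3872, and *Ctnna3*, a catenin, was the only gene of that kind, at 0.650 and 3.51 without and 0.0655 and 0.223 with AAI. *Ctnna3* was tested in only 2 clusters outside and was called lower in 1 of them.

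For a type with a single cluster, a gene counted where its difference there was at least 1 in size and no other cluster was called that way. Principal cells had 3 such rises, in *Junos*, an antisense neighbour of *Jun*, *Asap2* and *Kcnh5*, a potassium channel, which was tested in no other cluster. Podocytes had 1 rise, *Acpp*, with a difference of 1.54 here and -0.12 in the control pair, and 1 fall, *Nell2*, a secreted neural protein, at 6.93 and 0.613. The difference of *Nell2* was -2.30 here and -1.77 in the control pair. *Acpp* was tested in 1 other cluster. *Nell2* was tested in no other cluster, so that it could be called nowhere else. The MC cluster had 10 rises and 6 falls, led by *A730049H05Rik*, *Serping1*, the C1 inhibitor, and *Epha3*, and by *Adamtsl1*, *Dcn*, decorin, and *Carmn*. Of these, 2 and 3 were tested in no other cluster, *A730049H05Rik*, *Epha3*, *Dcn* and *Carmn* among them, so that they too could be called nowhere else. *Serping1* was tested in 1 other cluster. The macrophage cluster had 74 and 42 and LH-DL 80 and 47, with over 50% of the genes at 0 in 1 mouse or both. In LH-DL the leading rises held the podocyte genes *Wt1*, at 0.657 without and 6.01 with AAI, and *Nphs1*, at 0 and 3.00. *Slc14a2*, a urea transporter of the thin limb, was 1.97 without AAI and 0 with it in that cluster, so the 2 mice differed there in the markers themselves.

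Among genes past the minimum level, short and long genes differed in sign in nearly every cluster. Genes of under 30 kb had a median difference below 0 in 20 of 21 clusters, from -0.31 in LH-AL-3, and 0.05 in the macrophage cluster. Genes of over 100 kb had one above 0 in all 21, from 0.06 to 0.19. The median over clusters of the long minus the short median was 0.24 in the OE pair and 0.04 in the control pair. It depends on the minimum level, and was 0.046 and 0.01 with none and 0.52 and 0.18 with a minimum of 2. The short genes that were lower include the mitochondrial, ribosomal and metabolic genes above.

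Genes of the longest spans were lower in many clusters. In a class of over 800 kb, chosen after the values were seen, the median difference was below 0 in 18 of 21 clusters of the OE pair and in 19 of the control pair, while that of 100 to 500 kb was above 0 in 21 and 18. It was -0.43 over 31 genes in PT-S3-1 of the OE pair and -0.52 over 30 in the control pair. In the 4 other proximal tubule clusters it was between -0.16 and -0.05 in the OE pair and between -0.37 and -0.07 in the control pair. The class of 500 to 800 kb was below 0 in 3 clusters of the OE pair and 7 of the control pair. In PT-S3-3 it was at -0.27 and -0.44, below the class over 800 kb at -0.16 and -0.37, and in PT-S3-1 at -0.17 and -0.23. Of 45 genes over 800 kb tested in at least 7 clusters, 10 were called lower by the list rule, or 22.2%, and 2 higher. The same rule calls 4.28% of all 5139 genes lower and 2.28% higher. The 10 had a median difference below 0 in the control pair. *Wwox*, an oxidoreductase gene at a fragile site with a span of 913 kb, was 5.44, 6.71 and 4.87 without and 1.10, 2.96 and 0.900 with AAI in PT-S3-1, PT-S3-2 and PT-S3-3. *Fhit*, the gene of another fragile site, was 13.8, 6.75 and 12.6 without and 3.86, 4.46 and 1.66 with AAI. *Immp2l*, a mitochondrial peptidase gene, had differences of -1.20, -0.71 and -1.36 in the same clusters, and *Erc2* was lower in 16 of 21. *Nrg1*, with a span over 800 kb, and *Exoc4* and *Pkhd1*, which span over 500 kb, were higher.

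**Figure D5:**
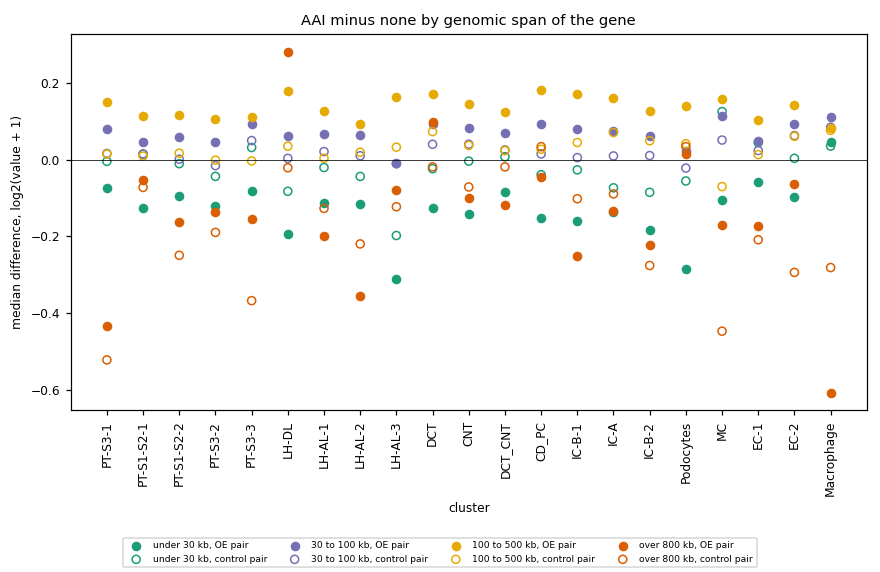
Points are the median differences of tested genes in each of 21 clusters by genomic span, on the log2(level + 1) scale, filled for the OE pair and open for the control pair. Genes under 30 kb lie below 0 in all but the macrophage cluster and genes of 100 to 500 kb above 0 in the OE pair, and the class over 800 kb is lowest in PT-S3-1 at -0.43 and -0.52 among the proximal tubule clusters.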

How the data were processed

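Kidney nuclei of 4 mice were sequenced on a droplet platform in a single batch. The deposited signal values were made by the authors, who counted reads with Cell Ranger on an mm10 pre-mRNA reference and filtered, clustered and averaged nuclei in Seurat, and they sum to 10000 in each column. Doublet removal is not described for these data. Of 19632 rows, 23 with date-like names were left out. Clusters took their names from the sheets of the study's marker table, read in order, and not from a label in the columns. The segments, the 28 gene lists and the genes were chosen with earlier results of these data known. Named were *Klf6*, *Polr2a*, the 12 genes raised and the 12 lowered in the most clusters, the 3 leading genes of each segment and direction, the leading members of lists, and p53, clock and glucocorticoid members called in at least 10 clusters. Others, such as *Zfp36*, *Junb*, *Kap* and *Pkhd1*, were chosen after their values were seen, as was the rule for lists. Genomic spans came from GENCODE M21 for 19315 rows. The steps were tested on simulated data with changes larger than the threshold, in expressed genes and at equal depth in all clusters. False calls in sparse clusters were not measured that way. With 1 mouse per condition no test was made. Python 3.11.15, numpy 2.4.6 and pandas 2.3.3 were used. Alternatives were another pseudocount, minimum, threshold, number of clusters, centring and gene set. Results for some genes are not reported here.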

Additional observations from a re-analysis of the deposited data

Results flagged for a closer look

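In 4 genes lowered in at least 14 clusters of the OE pair, the median difference over clusters was above 0 in the control pair, and with 1 mouse a side the difference between the pairs was not tested. *Fth1*, the ferritin heavy chain, had -0.77 in the OE pair and 0.27 in the control pair, with median levels of 13.3 in Control, 15.7 in Control_AAI, 22.6 in OE and 12.4 in OE_AAI. *Atp5b*, an ATP synthase subunit, had -0.62 and 0.066, *Slc25a5*, an ADP/ATP carrier, -0.68 and 0.037, and *Tmem176b* -0.57 and 0.049. In each of the 4, the OE mouse held the highest median of the 4 mice, which the choice of genes lowered in the OE pair favours.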

How the results depend on the processing

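No paired analysis was possible because each condition has 1 mouse. Most of the results are counts, which cannot turn direction. The long minus short difference and the mitochondrial difference, which can, kept their sign in every alternative run. Of 78 alternative values, 33 moved by more than 1.5 times. Calls over the 21 clusters, 18120 in all, were 42763 with a pseudocount of 0.1, 6653 with a minimum of 2, 54686 with a threshold of 0.2 and 2658 with a threshold of 1. In the same order, raised genes in many clusters (20) were 45, 8, 138 and 2, and lowered genes (66) were 173, 39, 213 and 19. Genes raised in every proximal tubule cluster (33) were 64, 18, 195 and 2, and lowered ones (44) were 147, 29, 229 and 10, with all these settings added later. Asking for 11 or 17 clusters gave 36 or 9 raised and 104 or 37 lowered genes. With the Control mouse as the baseline 13 genes were raised. Genes changed in 1 segment (287) were 1812 with a pseudocount of 0.1, 178 with a threshold of 0.2 and 603 with a threshold of 1. The p53 genes called higher (9) were 2 with a minimum of 2 and 2 with a threshold of 1, which was added later. The median long minus short difference (0.24) was 0.44 with a pseudocount of 0.1, 0.046 with no minimum, a setting chosen after the values were seen, and 0.52 with a minimum of 2. Leaving out the 4 clusters with over 50% of their genes at 0, and asking for 12 of the 17 kept, gave 20 raised and 60 lowered genes, and leaving out genes over 4 times higher in the proximal tubule gave 19 and 57. Centring, dropping mitochondrial genes and keeping protein-coding genes kept every count within 1.5 times. Low levels and unknown numbers of nuclei limit single values.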
